A study of Oryza sativa with 4 samples.

Results

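Clusters of close OsLEC1 summits are stretches of the rice genome in which at least 3 ChIP-seq peaks of the tagged protein follow each other at short distances. They were selected on measured values, namely the summit positions and widths in the peak list of OsLEC1-ChIP. A summit is the base of a peak with the highest ChIP coverage. Neighbouring peaks on chromosomes 1 to 12 were linked when their summits lay under 2000 bp apart, and a chain of linked peaks was kept as a cluster when it held 3 or more peaks and every peak was under 1000 bp wide. In total, 663 clusters with 2190 peaks were found among 27432 peaks on the chromosomes, 27452 in the whole OsLEC1 list and 27454 in both lists of the series.

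ChIP-seq was performed on callus of the wild type Nipponbare (NIP) and of the 35S:3xFLAG-OsLEC1 line, both on the Nipponbare background, with an antibody against the FLAG (DDDDK) epitope. Seeds of both genotypes were kept for 30 days on N6-based callus induction medium with the auxin analogue 2,4-D before harvest. Both genotypes had 1 ChIP library and 1 library of input DNA (4 groups in all), so there were no replicates and no test was run. The 35S promoter is active in most plant tissues, 1 transgenic line was used, and callus stood in for embryos, which could not be collected in sufficient amount. The lists hold no expression values, so that the callus identity was not checked against markers.

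LEC1 is an NF-YB subunit of nuclear factor Y, a protein complex that recognises the CCAAT box. In Arabidopsis it is a central regulator of embryo development and seed maturation, and it can also act at G-box and ABRE-like elements together with bZIP proteins. Regulatory DNA of plants often holds several binding sites within a short distance, and close peaks can lie at 1 gene or at the starts of neighbouring genes. A genome or gene annotation on IRGSP-1.0, the assembly of the files, was not used here. The genes and the sequences under the clusters were therefore not analysed, and positions are given by coordinates alone.

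From the fold and the p-value of each peak, the number of ChIP fragments over its summit (the pileup) and the local background from the input were recovered. The lowest background in the OsLEC1 list, 3.49 fragments, gives the mean coverage of its ChIP library, and the lowest one in the NIP list gives an upper bound of 0.842 for the other. NIP-ChIP had 2 peaks. Neither overlapped a cluster, and the nearest clusters were 1006 kb and 847 kb away on chromosome 11.

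Most clusters were short. Of the 663 clusters, 511 (77.1%) held 3 peaks, 114 held 4, 29 held 5, 7 held 6 and 2 held 7. The cluster peaks made up 7.98% of the chromosome peaks (exact 95% interval 7.67 to 8.31%, counting error only). Peaks join a cluster only as a whole chain, so this interval, which counts each peak as independent, is too narrow. Another 161 chains of 3 or more peaks were left out because they held a peak of 1000 bp or more, and in 143 of them a single wide peak was the reason. The longest chain of all was among them, with 8 peaks over 8793 bp on chromosome 6 from 22611887 to 22621012. Its widest peak measured 1249 bp and the other peaks were under the limit.

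The share of chains with a further peak was lowest at the first step. Of all 22466 chains, single peaks included, 17.2% (16.7 to 17.7%) had at least 2 peaks. Of the 3872 chains with at least 2 peaks, 21.3% (20 to 22.6%) had at least 3, and of these 824 chains 25.4% (22.4 to 28.5%) had at least 4. Among the chains of 4 or more, 22.5% (17.0 to 28.8%) had at least 5, and among those of 5 or more, 21.3% (10.7 to 35.7%) had at least 6. The interval of the first share lay below those of the next 2, and from the second share on the intervals overlapped. Chains with wide peaks are included in these shares.

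The limits of the rule cut through a continuous range. The closest distances on either side of the linking limit were 1999 bp inside a cluster and 2000 bp outside, and the widest peak inside a cluster measured 996 bp, against 1000 bp for the narrowest peak that removed a chain.

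The summits of a cluster were spread over a few kilobases. The distance from the first to the last summit had a median of 2739 bp and ranged from 1140 to 7622 bp. The median was 2527 bp in clusters of 3, 3806 bp in clusters of 4, 5177 bp in clusters of 5 and 6686 bp in clusters of 6. From the first to the last base, clusters measured 3235 bp at the median (1446 to 8069 bp), and the peaks covered 45.9% of this length (20.6 to 79.9%). More than 50% of a typical cluster was thus sequence between peaks.

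No single spacing prevailed inside the clusters. The 1527 distances between neighbouring summits had a median of 1238 bp, with 5% at or below 647 bp and a minimum of 415 bp. Distances of 800 to 1000 bp made up 16.0% of them, 1000 to 1200 bp 16.6%, 1200 to 1400 bp 13.4%, 1400 to 1600 bp 14.8% and 1600 to 1800 bp 13.4%. Below 600 bp there were 46 distances, or 3.01%. The narrowest cluster peak measured 241 bp, and the smallest gap between 2 peaks of a cluster was 242 bp. Chains of 2 peaks under 1000 bp wide had the same smallest width and gap, and peaks without a close neighbour the same smallest width. These minima of the list limit how short a spacing can be, and their source was not tested.

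**Figure D1:**
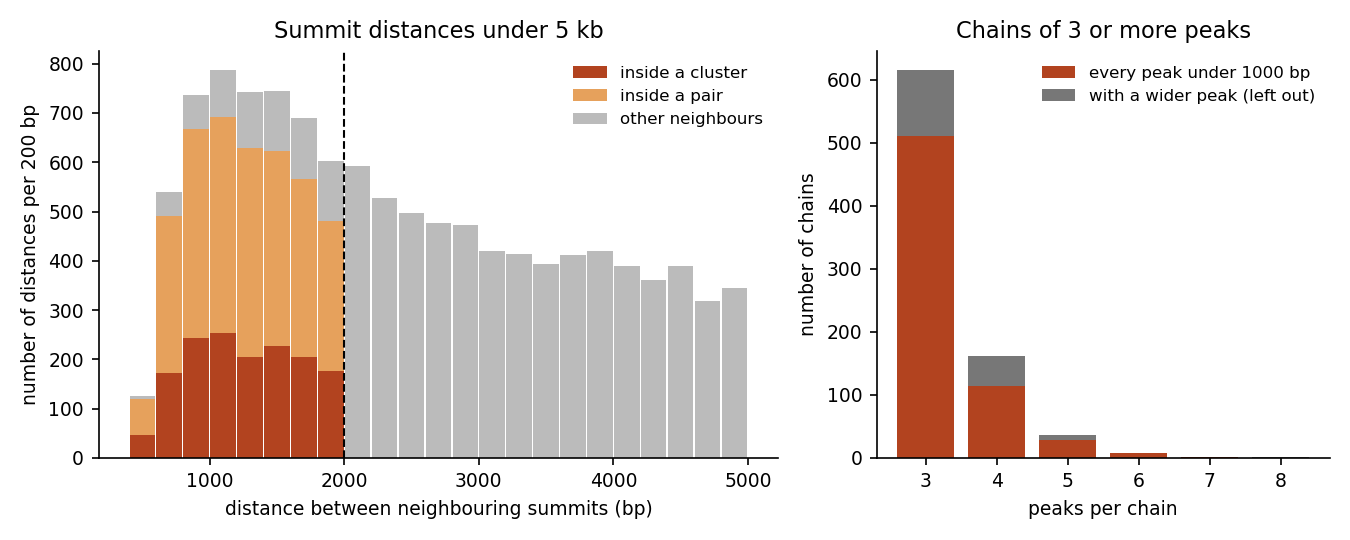
Left, number of distances between neighbouring OsLEC1 summits (y axis, per 200 bp) against the distance in bp (x axis), with distances inside clusters, inside pairs and all others stacked and the linking limit of 2000 bp dashed; right, number of chains (y axis) by peaks per chain (x axis), with the chains left out for a peak of 1000 bp or more on top. Distances in clusters lie between 415 and 1999 bp without a narrow mode, and 511 of the 663 clusters hold 3 peaks.

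Clusters and pairs shared this spacing. A pair was a chain of 2 peaks, both under 1000 bp wide, and 2738 pairs were found. Their summits were 1252.5 bp apart at the median, against 1238 bp in clusters. A distance under 1000 bp was found for 30.3% of the distances in clusters (28.0 to 32.6%) and for 29.8% of those in pairs (28.1 to 31.5%). The gap between peaks had a median of 757 bp in clusters and 785 bp in pairs. Clusters of 3 to 7 peaks had median spacings between 1117.5 and 1358 bp, with no order by size. The linking limit caps all of these values at 2000 bp.

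Nor were peaks placed at regular steps. In the 511 clusters of 3, the first spacing had a median of 1253 bp and the second 1208 bp, and the spacings of 1 cluster were unrelated (Spearman's rho 0.0207 over 511 clusters, a description). The longer spacing was 1.41 times the shorter at the median, and 57.1% of these clusters had a ratio under 1.5.

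Peaks in clusters had about the same height as single peaks. Single peaks were the 17665 peaks under 1000 bp wide without a neighbour inside the linking limit. The pileup in clusters had a median of 38 fragments, a 5th percentile of 21 and a 95th of 89, and ranged from 12 to 214. In single peaks the median was also 38 fragments, with 20 and 88 at these percentiles, and in pairs it was 38 as well. The pileup therefore did not set the clusters apart from the rest of the list. The highest cluster peak had 214 fragments, the highest single peak 271 and the highest peak of a pair 339. These maxima come from groups of unlike size, with 2190 peaks in clusters, 17665 single peaks and 5476 peaks in pairs, and are not compared on equal terms. These measures come from the same ChIP and input libraries as the summits that define a cluster, and they are given as a description.

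The authors' fold, which sets the pileup plus 1 over the background plus 1, had a median of 4.95 in clusters, 5.03 in pairs and 5.06 in single peaks. A fold of at least 10 was found for 169 cluster peaks, or 7.72% (6.63 to 8.91%), against 8.7% of all 27452 listed peaks and 7.74% of single peaks (7.35 to 8.15%). The intervals of clusters and single peaks overlapped. The share in all peaks includes wide peaks, which the rule excludes from clusters. At the weak end of the list, a −log10 q-value under 5 was found for 7.99% of the cluster peaks (6.89 to 9.21%) and 6.79% of the single peaks (6.43 to 7.17%), and these intervals overlapped as well. Over all chromosome peaks the share was 6.67% (6.38 to 6.97%). The share of weak peaks in clusters was thus close to the other shares, with overlapping intervals, and is not read as a trait of clusters. Most cluster peaks lay above this limit.

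The background from the input had the same median in clusters and single peaks, 6.68 fragments, but differed at its lower end. The lower quartile was 5.28 in clusters, 4.91 in pairs and 4.81 in single peaks. The lowest possible background, 3.49 fragments, was found at 42 cluster peaks, or 1.92% (1.39 to 2.58%), at 3.80% of pair peaks (3.31 to 4.34%) and at 5.48% of single peaks (5.15 to 5.83%). The order ran from clusters over pairs to single peaks. The intervals of these groups did not overlap, but they count each peak as independent. Close peaks can share part of the input window of the 1 input library, so the order is a description and was not tested. Over all chromosome peaks, which include these groups, the share was 4.49% (4.25 to 4.75%). At many peaks the background moves in steps, which is why equal medians can go with different lower quartiles.

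**Figure D2:**
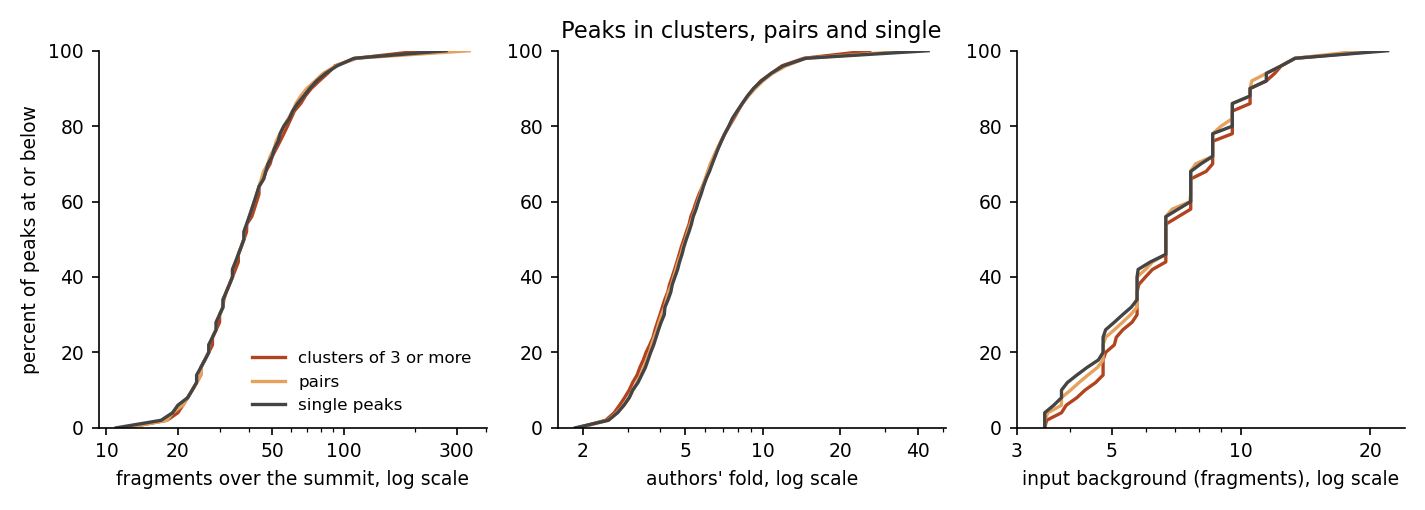
Percent of peaks at or below a value (y axis) against fragments over the summit, the authors' fold and the input background in fragments (x axes, log scale), for peaks in clusters, in pairs and single peaks. The curves for pileup and fold lie on each other, with medians of 38 fragments in all groups and folds of 4.95 to 5.06, while the background curve of clusters starts to the right, with 1.92% of peaks at the floor against 5.48% of single peaks.

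Cluster peaks were slightly wider than single peaks. The median width was 417.5 bp in clusters, 400 bp in pairs and 393 bp in single peaks, all under the limit of 1000 bp by construction. The order held among peaks of like height. Among peaks with 40 to 49 fragments over the summit, the median width was 432 bp in clusters (373 peaks) and 407 bp in single peaks (3116 peaks). With 50 to 69 fragments it was 510 bp against 478.5 bp, and with 100 or more it was 673 bp against 651 bp. The difference was smaller among low peaks, with 320 bp against 315 bp at 20 to 29 fragments. In all 7 height classes the median of the clusters was the larger.

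Peaks of 1 cluster differed in height. The highest pileup of a cluster was 2.097 times the lowest at the median, and this ratio ranged from 1.03 to 9.19. It was 2 or more in 356 clusters (53.7%) and under 1.5 in 122 (18.4%). In 381 clusters (57.5%, 53.6 to 61.3%) the exact Poisson intervals of the highest and the lowest pileup did not overlap, so that unevenness went beyond counting error in these clusters when each peak is taken by itself. No such share was computed for sets of peaks outside clusters, so it is not shown to be particular to clusters. For 2 neighbouring peaks, the higher pileup was 1.5 times the lower at the median in clusters. It was 1.49 times in pairs and 1.52 times at 10 kb or more. The highest and the lowest of a cluster were picked after the fact, and the ratio of highest to lowest differed with the number of peaks. Its median was 1.95 in clusters of 3, 2.29 in clusters of 4 and 2.83 in clusters of 5, and then 2.81 in the 7 clusters of 6 and 2.58 in the 2 clusters of 7. In clusters of 3, the highest peak held 45.1% of the summed pileup at the median (34.1 to 77.0%).

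With 7.72% of cluster peaks at a fold of at least 10, about the share in single peaks, few clusters held several of them. No peak reached a fold of 10 in 507 clusters (76.5%), 1 peak did in 144 (21.7%), and 2 or more did in 12 (1.81%, 0.939 to 3.14%). A single cluster had 3 such peaks, the one on chromosome 1 from 30455260 to 30460071 described further on.

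Neighbours in a cluster were only weakly alike. Over the 1527 neighbouring peaks in clusters, Spearman's rho was 0.0819 for the pileup, 0.0597 for the fold and 0.0387 for the width. For the 6426 neighbours at 2000 to 5000 bp it was 0.0845, 0.0551 and 0.0911, and at 10 kb or more it was 0.0328, 0.00655 and 0.0331. Likeness in pileup and fold was thus about the same in clusters and at a few kilobases. For the width, rho was 0.0755 in pairs, and the value in clusters was close to that at 10 kb or more. Neighbours at 2000 bp or more include peaks of 1000 bp or more, which clusters and pairs exclude, so these width values do not cover the same range. The higher pileup of 2 neighbours was 1.5 times the lower at the median in clusters, 1.49 times in pairs and 1.52 times for neighbours at 10 kb or more. The background was more alike at short range, with rho 0.150 in clusters, 0.136 in pairs, 0.0994 at 2000 to 5000 bp and 0.0431 at 10 kb or more. All of these points share 1 ChIP library and 1 input library, and neighbouring peaks can share part of the input window that sets the background.

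**Figure D3:**
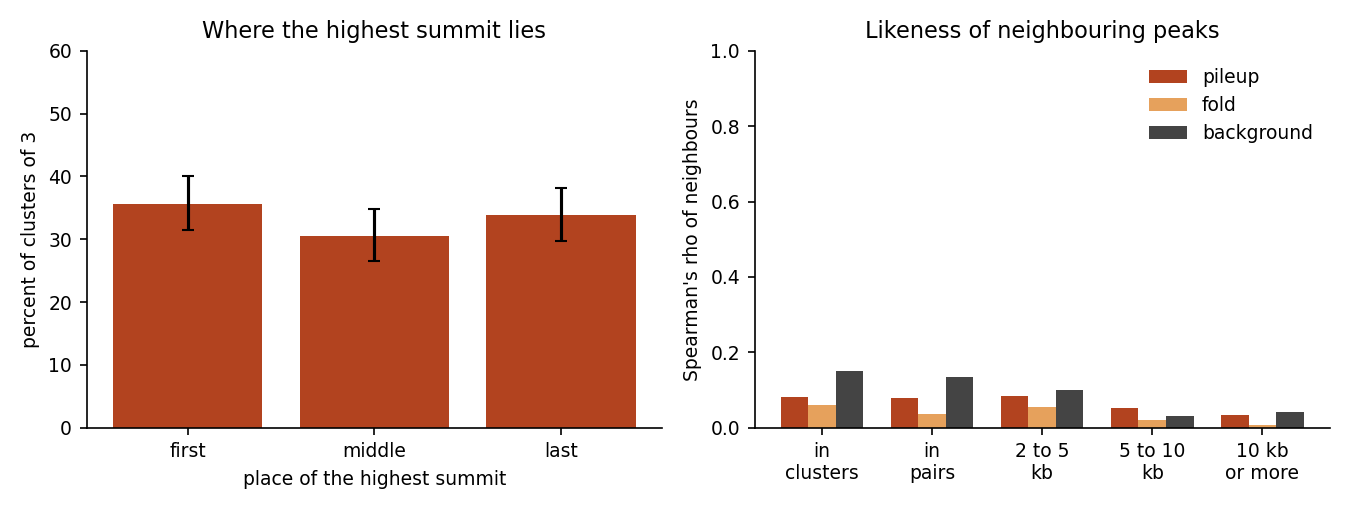
Left, percent of clusters of 3 (y axis) whose highest summit is the first, the middle or the last (x axis), with exact 95% binomial intervals for 497 clusters without a tie; right, Spearman's rho between neighbouring peaks (y axis) for pileup, fold and background, in clusters, in pairs and at larger distances (x axis). The highest summit is in the middle in 30.6% of the clusters, and rho stays at or below 0.150 throughout.

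The place within a cluster made little difference. In the 497 clusters of 3 without a tie, the highest summit was the first in 177 (35.6%, 31.4 to 40%), the middle in 152 (30.6%, 26.6 to 34.8%) and the last in 168 (33.8%, 29.7 to 38.1%). Another 14 clusters of 3 had a tie. Over all clusters, the 864 inner peaks had a median pileup of 37 fragments and a median fold of 4.91, and the 1326 outer peaks had 38 fragments and 4.99. Summits lay near the centre of their peaks, at 48.8% of the width in first, 50% in inner and 47.4% in last peaks, against 49.4% in single peaks.

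Clusters were found on all 12 chromosomes but were concentrated on 3 of them. Chromosomes 3, 1 and 2 held 122, 119 and 111 clusters, together 53.1% of all clusters (49.2 to 56.9%), against 42.8% of all chromosome peaks (42.2 to 43.4%) and 39.3% of single peaks (38.6 to 40.1%). Measured from its first summit to its last, chromosome 3 had 3.36 clusters per Mb (exact Poisson interval 2.79 to 4.01), chromosome 2 had 3.09 (2.54 to 3.72) and chromosome 1 had 2.75 (2.28 to 3.29). The intervals of these chromosomes overlapped. Chromosomes 4 and 5 followed with 2.03 and 2.05, and chromosomes 6 to 10 had 0.908 to 1.28.

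Chromosomes 11 and 12 had the fewest. There were 16 clusters on chromosome 11, or 0.555 per Mb (0.317 to 0.901), and 7 on chromosome 12, or 0.256 per Mb (0.103 to 0.527). Of all peaks, 10.95% lay in clusters on chromosome 2 (9.92 to 12.1%), 9.92% on chromosome 3 and 9.20% on chromosome 1, but 4.32% on chromosome 11 (3.25 to 5.61%) and 2.20% on chromosome 12 (1.40 to 3.28%). Single peaks differed less, with 65.7 per Mb on chromosome 3 and 30.7 on chromosome 12. The clusters themselves were similar across chromosomes. The median pileup of their peaks was 35 to 40 fragments on all chromosomes except chromosome 11, where it was 32, and the median over clusters of their own median spacing lay between 1097 bp (chromosome 10) and 1393 bp (chromosome 8).

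Across 1 Mb bins of all chromosomes, clusters followed the density of peaks. Of the 366 complete 1 Mb bins, counted from base 1 of each chromosome, 152 had no cluster and 73 had 1. The 53 bins with 5 or more clusters held 335 clusters, 50.5% of all. In bins with 1 to 30 peaks, 2.96% of the peaks lay in clusters (2.16 to 3.95%), and the share was 3.21% at 31 to 60 peaks, 5.90% at 61 to 90, 8.90% at 91 to 120 and 11.7% (11.1 to 12.3%) above that. Over the bins of all chromosomes together, rho was 0.717 between the number of clusters and the number of single peaks. Within single chromosomes it was positive on 12 of 12 (0.201 to 0.769), but low on chromosomes 11 (0.240) and 12 (0.201). A denser stretch brings summits closer together by itself, and how much of this relation that accounts for was not tested.

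**Figure D4:**
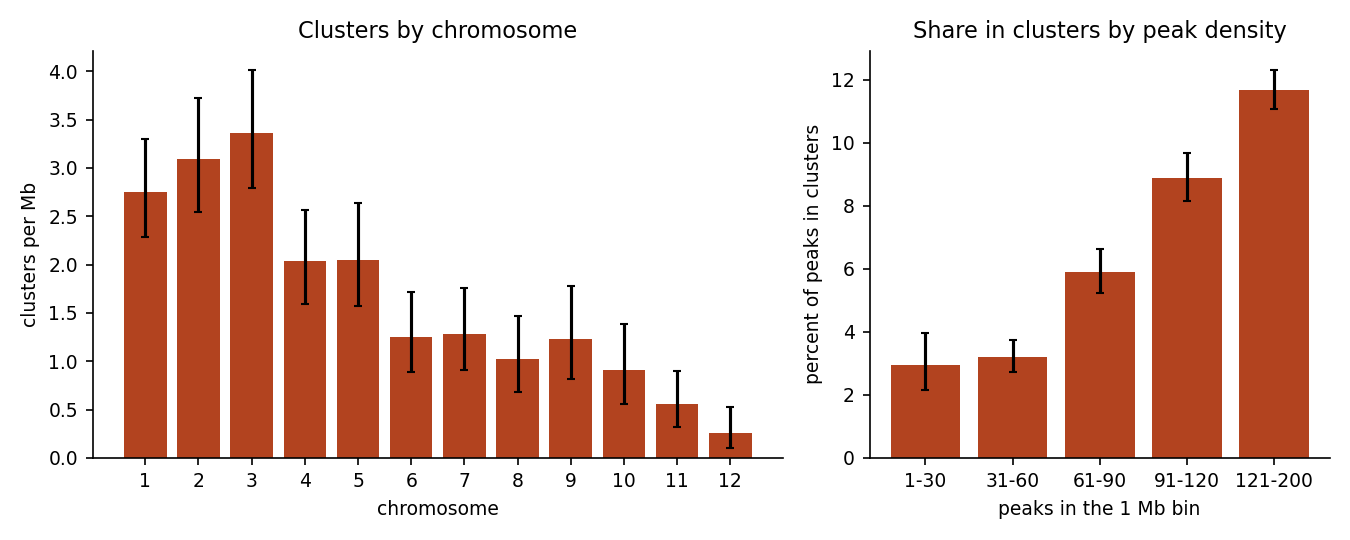
Left, clusters per Mb (y axis) on each of the 12 chromosomes (x axis), with exact 95% Poisson intervals; right, percent of peaks that lie in clusters (y axis) by the number of peaks in the 1 Mb bin (x axis), with exact 95% binomial intervals. Clusters are most frequent on chromosome 3 with 3.36 per Mb and least frequent on chromosome 12 with 0.256, and the share in clusters is 2.96% in the sparsest and 11.7% in the densest bins.

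The richest bin, on chromosome 4 from 33000001 to 34000000, held 10 clusters with 31 of its 154 peaks. Next came chromosome 2 from 34000001 to 35000000 (9 clusters, 34 of 141 peaks), chromosome 5 from 27000001 to 28000000 (9 clusters, 31 of 149) and chromosome 3 from 4000001 to 5000000 (9 clusters, 28 of 182). On chromosome 10, the bin from 20000001 to 21000000 had 8 clusters with 32 of 117 peaks, or 27.4%, while the chromosome as a whole had 5.79% of its peaks in clusters. The longest run of bins without a cluster was the stretch from 5000001 to 15000000 on chromosome 8, which held 314 peaks. A run of 8 such bins opened chromosome 9, and one of 7 opened chromosome 10.

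Near the chromosome ends, a smaller share of peaks lay in clusters than over all chromosome peaks. In the first and the last Mb of each span, 88 of 1838 peaks lay in clusters (4.79%, 3.86 to 5.87%), with 28 clusters, against 7.98% of all chromosome peaks. This comparison was matched neither for chromosome nor for peak density. The share ran from 2.20% to 10.95% over chromosomes and from 2.96% to 11.7% over density classes, with 5.90% (5.22 to 6.63%) at 61 to 90 peaks per bin. Whether the ends differ apart from these was not tested.

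Clusters were mostly separate from each other. From the last summit of a cluster to the first summit of the next on the same chromosome, the median distance was 200083 bp, and 31 of 651 such distances (4.76%, 3.26 to 6.69%) were under 10 kb. The nearest clusters were 2140 bp apart. Outside a cluster, the next summit on either side was 6433 bp away at the median, against 9061 bp for single peaks.

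Because clusters and single peaks lie in different bins, their peaks were also compared within the same bin. In the 219 bins with at least 3 cluster peaks and 10 single peaks, the median pileup of cluster peaks was 0.967 times that of single peaks (lower and upper quartile over bins 0.833 and 1.19), higher in 94 bins and lower in 119. The ratio was 0.986 for the fold (higher in 103, lower in 114), 1.03 for the width (114 and 104) and 1 for the background (87 and 103). None of these ratios lay far from 1 against the spread over bins.

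The lower end of the background was also compared among bins of similar density, and the intervals of cluster and single peaks were apart in 2 of 5 classes. These intervals again count each peak as independent, although close peaks can share part of the input window, so they serve as a description only. In the densest bins, with more than 120 peaks, 0.905% of the cluster peaks (0.453 to 1.61%) and 2.88% of the single peaks (2.46 to 3.36%) had the lowest background. At 91 to 120 peaks the shares were 0.622% (0.129 to 1.81%) and 3.49% (2.89 to 4.17%). In bins with 61 to 90 peaks they were 5.75% (3.25 to 9.30%) and 5.56% (4.78 to 6.42%), and the intervals overlapped. They also overlapped in the sparser bins, where the share in clusters was again the lower but rested on few cluster peaks. It was 5.49% (2.54 to 10.2%, 164 cluster peaks) against 9.44% (8.55 to 10.4%) at 31 to 60 peaks. At 1 to 30 peaks it was 6.82% (1.43 to 18.7%, 44 cluster peaks) against 10.4% (8.77 to 12.3%). The median background of cluster and single peaks was 7.14 and 6.91 fragments in the densest bins, 6.68 in both at 91 to 120 peaks, and 6.13 and 6.68 at 61 to 90 peaks, so that its direction changed between classes.

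The cluster with 7 peaks on chromosome 3 spanned 1168396 to 1176416, with 7512 bp from first to last summit. Its summits carried 52, 43, 50, 25, 37, 25 and 22 fragments over backgrounds of 5.57 to 10.5. The first and the third peak had folds of 8.06 and 6.27, and the others had folds of 2.26 to 3.83. Height was thus concentrated in the left part of the cluster, and the intervals of the first peak (38.8 to 68.2) and of the last (13.8 to 33.3) did not overlap. This cluster lay in a bin with 155 peaks and 5 clusters.

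The other cluster with 7 peaks was located on chromosome 7 from 4560527 to 4568548, in a bin of only 77 peaks. Its pileups were 22, 34, 42, 40, 15, 17 and 25 fragments, with 7622 bp between the outer summits, the longest span of all clusters. The peak with 15 fragments had a −log10 q-value of 2.43, close to the authors' limit, and the peak beside it with 17 fragments had 2.98. Without these peaks the distance between the remaining summits would exceed the linking limit, and a chain of 4 would be left, so that the size of this cluster rests on weak peaks.

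Of the clusters with 6 peaks, 3 had the highest summed pileups. On chromosome 4 from 19201472 to 19209540, the pileups were 50, 85, 36, 62, 62 and 44 fragments, and the highest fold was 12.03. On chromosome 3 from 11641690 to 11648019, they were 57, 51, 57, 21, 36 and 59, over backgrounds of up to 14.3. On chromosome 2 from 34444517 to 34451464, they were 48, 26, 40, 49, 73 and 44. In each of these clusters the highest peak had between 2.36 and 2.81 times the pileup of the lowest, and the highest peak was the second, the last and the one before the last, respectively.

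**Figure D5:**
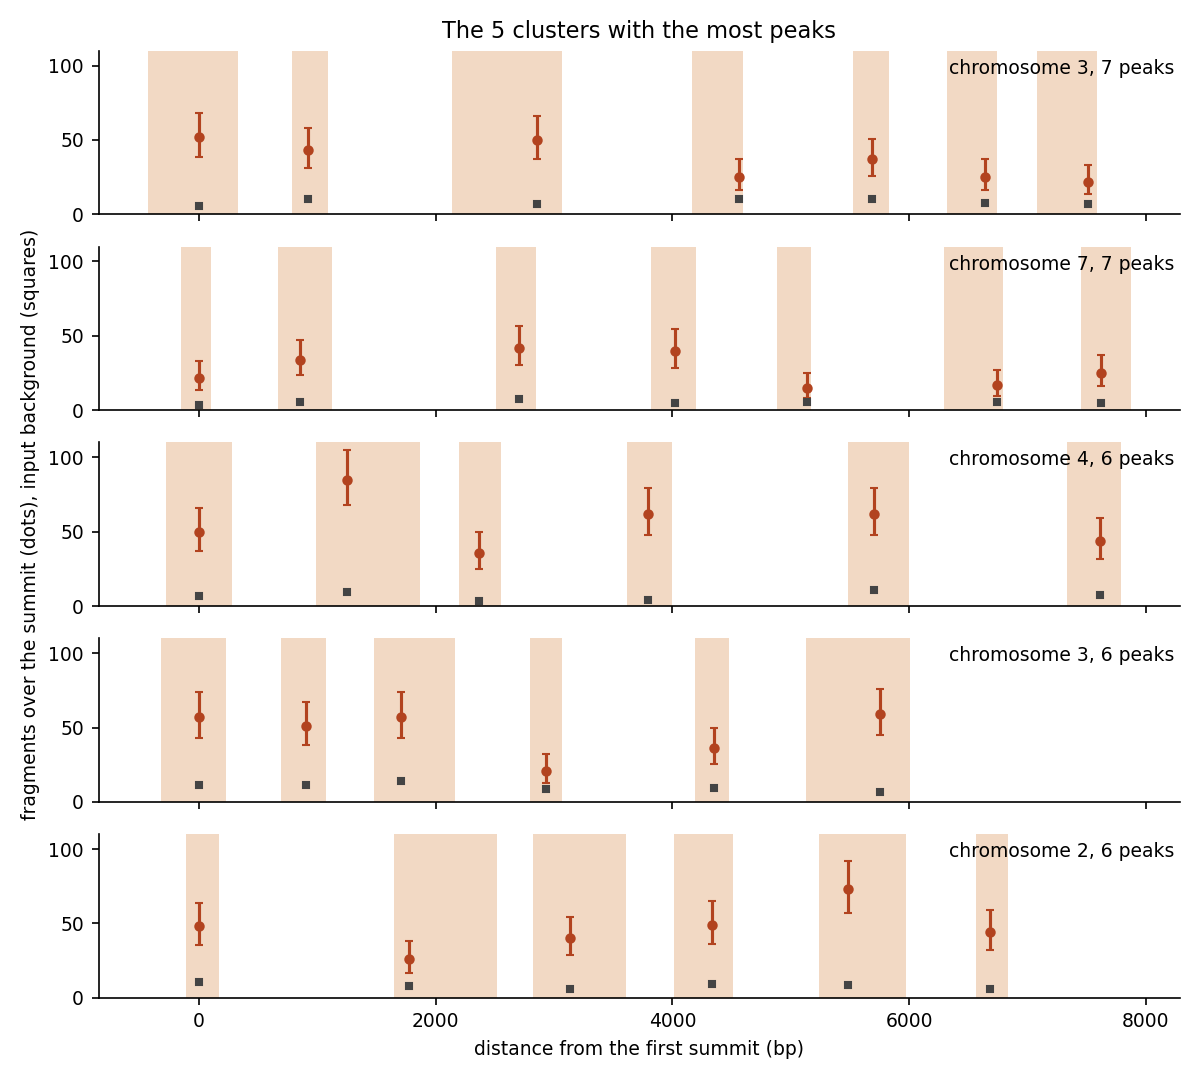
Fragments over each summit (dots, y axis, with exact 95% Poisson intervals) and the input background there (squares) against the distance from the first summit in bp (x axis), for the 5 clusters with the most peaks; shaded bands mark the peak intervals. Pileups range from 15 to 85 fragments, and every summit lies above its background.

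The clusters with the highest median fold were smaller. On chromosome 4 from 26353906 to 26357140, a cluster of 3 had folds of 14.2, 13.7 and 2.44. The pileups were 79, 78 and 41 fragments, and the low fold of the last peak went with a background of 16.2, the highest among the clusters described here, against 4.65 and 4.77 at the other summits. On chromosome 7 from 23056280 to 23059977, the pileups were 89, 51 and 117 fragments and the folds 11.7, 5.42 and 12.3. This cluster was covered by peaks over 73.6% of its length.

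A cluster of 4 on chromosome 2 from 31642780 to 31648464 had 32, 94, 44 and 191 fragments, with folds of 5.72, 17.7, 4.27 and 20.03. Low and high peaks alternated here, and the last was 5.97 times as high as the first. The cluster of 4 on chromosome 1 from 30455260 to 30460071 had the largest summed pileup of all, 364 fragments, divided into 41, 61, 163 and 99. Its last 3 peaks had folds of 10.1, 19.0 and 11.6. On the same chromosome, from 31565979 to 31569542, pileups of 91, 58 and 28 fragments and folds of 11.98, 10.8 and 4.31 fell from left to right.

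The clusters with the smallest median spacing each held 3 peaks of at most 42 fragments. On chromosome 1 from 25225600 to 25227045, summits with 38, 24 and 32 fragments followed each other at 645 and 495 bp. On chromosome 3 from 9366353 to 9367839, the spacings were 577 and 565 bp and the pileups 21, 41 and 42, with a median fold of 7.28. Also on chromosome 3, from 6803533 to 6805426, they were 707 and 491 bp with 24, 31 and 27 fragments. The neighbouring Poisson intervals overlapped in each of these clusters. No fragment of 241 bp, the width of the narrowest peak, could cover 2 of these summits, but longer sonicated fragments could.

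Among clusters of 4 or more, the most even had nearly equal peaks. On chromosome 9 from 18157445 to 18161540, the pileups were 34, 31, 32 and 28 fragments, a ratio of 1.21. On chromosome 3 from 14549434 to 14553364 they were 27, 26, 22 and 22, and on chromosome 8 from 799022 to 802881 they were 37, 37, 37 and 30. None of these clusters held a peak above 37 fragments, and their differences were within counting error.

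The least even clusters of 4 or more peaks held 1 or 2 high peaks beside low ones. Some clusters of 3 were less even still, with ratios up to 9.19. On chromosome 2 from 16701080 to 16705149, the pileups were 20, 65, 154 and 28 fragments, a ratio of 7.70, with a fold of 20.2 at the third peak. On chromosome 7 from 23676550 to 23680141 they were 61, 116, 17 and 22, and on chromosome 1 from 9769621 to 9773975 they were 44, 16, 93 and 105. The intervals of the highest and the lowest peak were far apart in each, as with 131 to 180 against 12.2 to 30.9 on chromosome 2.

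In sparse stretches clusters were rare, and those with the largest summed pileup there are named here after their values were seen. Only 14 clusters lay in complete 1 Mb bins with at most 30 peaks, and 6 of these were on chromosome 4. The largest sum, 240 fragments, belonged to a cluster of 4 on chromosome 12 with summits from 16988408 to 16993542, in a bin of 27 peaks. A cluster of 3 on chromosome 9 with summits from 8217590 to 8220475 followed with 188 fragments in a bin of 20 peaks. In these sparse bins the median pileup was 39 fragments in clusters (44 peaks) and 33 in single peaks, whereas in the densest bins it was 39 and 40.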

How the data were processed

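Per the submitters' processing notes and the study's methods, Bowtie2 (2.3.4.1) placed the reads on IRGSP-1.0, reads with more than 1 position were discarded, and MACS2 (2.1.2) called peaks against the input of each genotype at a q-value of 0.01. For each peak the authors deposited a fold ratio, a −log10 p-value and a −log10 q-value (the p-value and q-value on a log scale), a score made from the −log10 q-value by the caller, and the distance to the summit. A filter for replicates is named in the methods, and whether it was applied to these single libraries is unknown.

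Starts were changed to 1-based positions. The pileup and background of each peak were solved from the fold and the −log10 p-value as a Poisson tail, and 100% of peaks gave the latter back within 0.001 with a whole-number pileup. The procedure and the linking were checked on simulated data. Intervals are exact (Clopper-Pearson or Poisson, 95%) and cover counting error only. They hold no variation between callus samples, since each group had 1 library. Amplified fragments are not independent molecules, so the intervals may also be too narrow as a measure of counting error. Depth was known only as the mean coverage.

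The members, lists and comparisons were chosen with earlier results of these data known. Clusters were named by rule: the 5 with the most peaks (ties by summed pileup), the 5 with the highest median fold, the 3 with the smallest median spacing, and the 3 most and 3 least even of 4 or more peaks. Naming by gene groups, positions relative to genes and sequence words was planned and not run. The gene table at hand is on another assembly (ASM3414082v1), so its coordinates were not used. Alternatives to the linking distance, width limit, q-value limit, position and size were computed. Python 3.11.15, scipy 1.17.1, pandas 2.3.3, numpy 2.4.6 and matplotlib 3.10.9 were used.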

Additional observations from a re-analysis of the deposited data

How the results depend on the processing

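Of 96 values from 12 results under 8 settings, 54 stayed within the interval of the reported value (for counts, within 1.5 times) and 42 moved. The interval of the share of peaks in clusters is too narrow, so for it the label of moved is easily given. With peak centres in place of summits, none moved. The median background moved under no setting, which its steps may hide. The share of clusters on chromosomes 1 to 3 moved only at 4 or more peaks, to 57.2%.

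Linking under 1000 bp gave 90 clusters with 274 peaks (0.999% of peaks), a median span of 1626 bp, spacing of 816.5 bp, width of 370.5 bp, pileup of 34 fragments and fold of 4.48, 4.74% of peaks at a fold of 10 or more, and a ratio of highest to lowest pileup of 1.84. The peaks under this setting were lower and narrower than those in the reported clusters. A summit distance under 1000 bp leaves little room for wide peaks, so the smaller width is fixed in part by the limit, and wider peaks were also higher. Linking under 3000 bp gave 1223 clusters with 4233 peaks (15.4%), a span of 3771 bp and a spacing of 1598.5 bp. Without the width limit, the share of peaks was 10.0% and the median width 434 bp. A gap under 1000 bp between intervals gave 343 clusters with 1090 peaks (3.97%), a span of 2189 bp, a spacing of 1041 bp and a width of 430 bp. The median pileup was 38 fragments there, as in the reported clusters, and the width was not smaller than their 417.5 bp. Clusters of 4 or more numbered 152 with 657 peaks (2.40%), a span of 4054 bp and a ratio of 2.37.

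With the list limited to −log10 q-values from 5 upwards, the share of peaks was 6.86%, the median pileup 40 fragments, the fold 5.19 and the ratio 1.96. At 10 or more, 220 clusters with 706 peaks were left (3.68%), with a spacing of 1291 bp, a width of 475 bp, a pileup of 47 fragments, a fold of 6.11, 12.7% of peaks at a fold of 10 or more and a ratio of 1.80. Stricter limits raise pileup and fold by construction.

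Settings for gene starts, sequence words and shared sequence were not run. There were no replicates to leave out. No paired analysis was possible because the groups hold a single library each. The single library and the unknown depth of NIP-ChIP limit all values to a description.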

Other observations

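Outside the 12 chromosomes, the OsLEC1 list held 20 peaks on 9 unplaced sequences, to which the rule does not apply. Linked in the same way, they formed 5 pairs and 0 chains of 3 or more peaks.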
